A study of Mus musculus with 18 samples.

Results

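The guanylin signaling genes of the colon were followed in RNA-Seq data from laser-microdissected epithelium of mice with colitis-associated dysplasia. They are 5 genes of the 55453 named in the count tables, taken by name: Guca2a, which encodes guanylin, Guca2b, which encodes uroguanylin, Gucy2c, which encodes their receptor guanylate cyclase C, Prkg2, which encodes the membrane-bound cGMP-dependent protein kinase II, and Pde5a, which encodes a phosphodiesterase that degrades cGMP. All 5 had enough counts to be tested. The 18 libraries formed 4 groups: 8P (n = 5) and 0P (n = 4), which were polypoid dysplasia from mice whose chow held 8 or 0 mg of folic acid (FA) per kg, and 8ND (n = 5) and 0ND (n = 4), which were non-dysplastic epithelium from mice on those diets. All groups came from female Swiss Webster mice given the carcinogen azoxymethane (AOM) at 7 weeks of age and, from 9 weeks, 4 cycles of dextran sulfate sodium (DSS) as 2% in drinking water for 7 days, then 14 days of plain water. The basal chow held 2 mg/kg FA, the assigned chow was fed from 11 weeks for 16 weeks, and colons were taken at 27 weeks. ND epithelium therefore came from colons with AOM and DSS exposure, and no group was free of colitis. The labels number the libraries but do not say whether a P and an ND library with the same number came from 1 mouse, nor whether each library was a separate mouse, so p-values measure the spread between libraries.

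Guanylin and uroguanylin are small secreted peptides that intestinal epithelial cells release into the lumen. They bind guanylate cyclase C on the apical membrane, and the cGMP made by this receptor activates protein kinase II, which opens the chloride channel CFTR and inhibits the sodium/hydrogen exchanger NHE3, so that salt and water enter the lumen. Guanylin is the main ligand of the colon and uroguanylin that of the proximal small intestine, and the same receptor is bound by the heat-stable enterotoxins of Escherichia coli. In mice, loss of the receptor is also known to enlarge the proliferating part of the crypt.

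The genes of both ligands lie side by side in the mouse genome (build mm10, GENCODE M21). Guca2a (ENSMUSG00000023247.2) spans chr4:119637704-119639471 on the plus strand and Guca2b (ENSMUSG00000032978.14) spans chr4:119656607-119658954 on the minus strand, with 17135 bases between their 3′ ends and 0 annotated genes in that gap. The end of each coding sequence encodes the active peptide. The last 15 codons before the stop codon are shown because they carry the bonds that define the family, with the cysteine codons in capitals, from chr4:119639228-119639272 (plus strand) for Guca2a and chr4:119656795-119656839 (minus strand) for Guca2b:
Guca2a: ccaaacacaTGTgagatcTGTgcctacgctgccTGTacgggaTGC
Guca2b: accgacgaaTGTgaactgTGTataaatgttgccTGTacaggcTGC
Each stretch held 4 cysteine codons, and all 4 stood at the same places. Of the 45 bases 29 were identical, and of the 15 codons 5 were, so reads from this stretch differ between the genes. The precursors had 116 codons in Guca2a and 106 in Guca2b. The receptor gene Gucy2c (ENSMUSG00000042638.14) spans chr6:136697284-136781765 on the minus strand, Prkg2 (ENSMUSG00000029334.14) chr5:98929773-99037351 on the minus strand and Pde5a (ENSMUSG00000053965.10) chr3:122728947-122859374 on the plus strand. Overlapping gene models took few reads. The pseudogene Gm3470 in an intron of Prkg2 had 67 counts over the 18 libraries, and 4930447N08Rik and Gm34139, which overlap Pde5a on the opposite strand, had 66 and 19.

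Promoter sequences (RefSeq, GRCm38.p6, from 250 bases before the start of the gene to 50 bases from it) were at hand for 3 of the 5 genes and are shown for the neighboring ligand genes, whose changes in dysplasia are compared below. In Guca2a, at chr4:119637482-119637781 on the plus strand, capitals mark matches to the GATA motif AGATAA. In Guca2b, at chr4:119658896-119659195 on the minus strand, they mark a match to the TCF/LEF motif CTTTGA. Both are written from the base farthest upstream of the start:
Guca2a: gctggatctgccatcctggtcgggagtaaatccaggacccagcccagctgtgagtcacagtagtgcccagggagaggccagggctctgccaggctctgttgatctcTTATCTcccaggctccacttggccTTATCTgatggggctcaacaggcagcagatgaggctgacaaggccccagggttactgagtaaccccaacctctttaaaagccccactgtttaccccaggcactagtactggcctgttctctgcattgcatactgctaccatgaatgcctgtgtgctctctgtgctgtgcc
Guca2b: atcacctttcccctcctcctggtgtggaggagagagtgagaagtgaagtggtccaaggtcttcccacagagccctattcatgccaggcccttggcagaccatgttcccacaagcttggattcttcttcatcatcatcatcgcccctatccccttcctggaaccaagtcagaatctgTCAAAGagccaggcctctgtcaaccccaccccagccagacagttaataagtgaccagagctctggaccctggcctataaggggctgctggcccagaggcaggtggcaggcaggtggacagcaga
These motifs, together with the CDX motif TTTATN, the GC box GGGGCGGGG and the TATA box TATAAA, were searched on both strands. Guca2a held 2 GATA matches, on the minus strand at -144 and -120 from the start, and no other match. Guca2b held the TCF/LEF match, on the minus strand, at -74, and no other match. Of 32851 mouse promoters of the same length, 11.2% held the GATA motif, 16.0% the TCF/LEF motif, 39.9% the CDX motif, 11.4% the GC box and 13.6% the TATA box. The GC content was 56.3% in Guca2a and 56.0% in Guca2b, against a median of 52.7% over all promoters. A match is a run of letters and was not tested as a binding site.

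The libraries held between 3500947 and 17048524 counts on genes (median 10292934.5). All 10 epithelium markers, Epcam, Cdh1, Krt8 and others, had counts in every library, and so did all 10 smooth muscle markers. The first principal component of the most variable genes held 64.5% of their variance and separated P from ND. On this component 8ND 1 and 8ND 2 lay closer to P than any other ND library did (-13.9 and -14.2, against 23.8 to 51.7 in P and -30.0 to -61.0 in the other ND libraries), and results that involve 8ND were also computed without them.

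**Figure D1:**
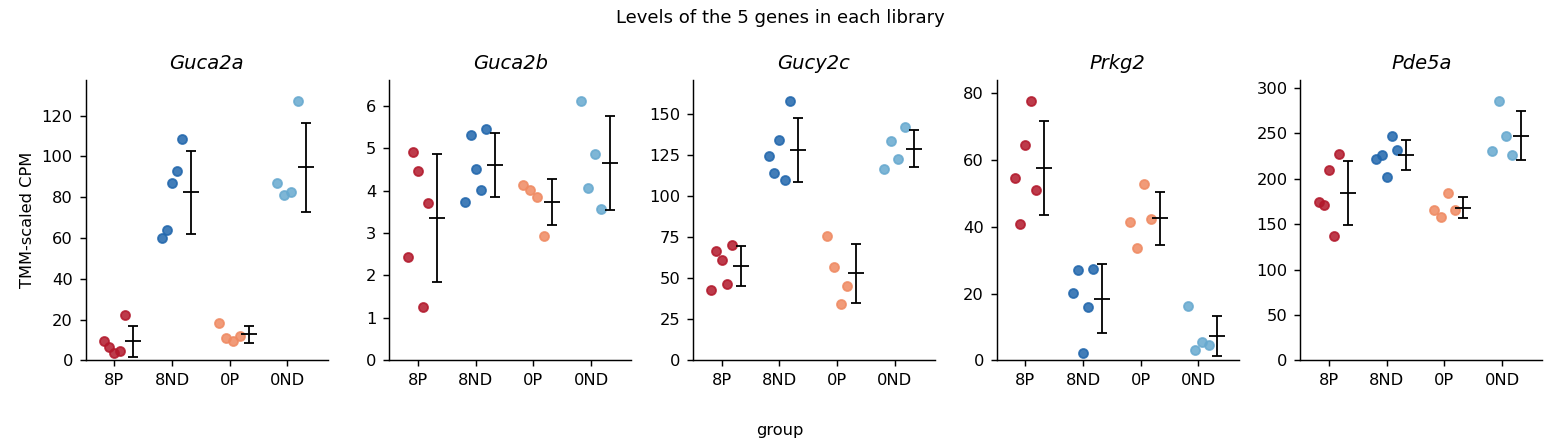
Level of each gene in each library, in CPM (read counts relative to the TMM-scaled library size), on linear axes that start at 0 and differ between panels. Each point is a library of 8P (n = 5), 8ND (n = 5), 0P (n = 4) or 0ND (n = 4), and the black bar beside the points is the group mean ± SD. In P, Guca2a and Gucy2c were below all ND libraries of the same diet and Prkg2 was above them.

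Levels are given as CPM, which are counts relative to the library size after scaling by trimmed means (TMM). To compare genes with each other, CPM was divided by the length of the merged exons in kilobases (CPM per kb; 594 bases for Guca2a, 870 for Guca2b, 3959 for Gucy2c, 5369 for Prkg2 and 9831 for Pde5a). The lengths are those of GENCODE M21, while the study's methods name RefSeq as the gene source for counting, so the lengths, and the orders and ratios that rest on them, could differ from those of the gene models counted. In each of the 9 ND libraries the order per kb was the same, with Guca2a highest, followed by Gucy2c, Pde5a, Guca2b and Prkg2. Mean levels per kb in 8ND and 0ND were 139 and 159 for Guca2a, 32.3 and 32.5 for Gucy2c, 22.98 and 25.2 for Pde5a, 5.29 and 5.35 for Guca2b and 3.45 and 1.37 for Prkg2. In the P libraries the order was mixed. Guca2b was the lowest of the 5 genes in each of the 9 P libraries, while the other 4 changed places. Pde5a was highest in 3 of 5 libraries of 8P, and Guca2a in 3 of 4 libraries of 0P. Mean levels per kb in 8P and 0P were 18.7 and 17.1 for Pde5a, 15.8 and 21.5 for Guca2a and 14.5 and 13.4 for Gucy2c. They were 10.8 and 7.93 for Prkg2 and 3.86 and 4.28 for Guca2b. The 8P mean of Guca2a includes 8P 5, at 37.5 per kb, against 6.43 to 16.4 in the other 8P libraries.

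To determine how the ligands differed in dysplasia, P was compared with ND on each diet. Guanylin transcripts were lower in dysplasia on both diets. Guca2a had 9.77, 6.53, 3.82, 4.64 and 22.3 CPM in the 8P libraries, against 59.9, 63.7, 87.2, 92.9 and 108 CPM in the 8ND libraries. The groups did not overlap, and the highest 8P library was well below the lowest 8ND library. The means were 9.41 ± 7.55 CPM in 8P and 82.4 ± 20.4 CPM in 8ND (SD, n = 5 each). Guca2a fell by 3.14 on the log2 scale (SE 0.39, 95% interval -3.97 to -2.31), 8.79-fold lower in 8P, with an adjusted p of 3.24e-05 in edgeR. Without the highest 8P library, 8P 5, the difference was -3.72. On folate-free chow, Guca2a had 18.5, 11.0, 9.33 and 12.2 CPM in 0P, against 87.0, 81.3, 82.8 and 127 CPM in 0ND, again without overlap. It fell by 2.88 (SE 0.43, 95% interval -3.80 to -1.97), 7.39-fold lower in 0P, with an adjusted p of 9.42e-05 in edgeR. Among the 20787 genes tested, 76 had a lower log2 fold change than Guca2a in 8P vs 8ND and 145 in 0P vs 0ND.

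Uroguanylin transcripts were rare in every group. Guca2b had 2.43, 4.90, 4.47, 1.27 and 3.71 CPM in 8P, against 3.73, 5.31, 4.51, 4.00 and 5.44 CPM in 8ND. It had 4.14, 4.00, 3.84 and 2.92 CPM in 0P, against 6.12, 4.06, 4.85 and 3.57 CPM in 0ND. The groups overlapped on both diets, and these levels rest on 15 to 96 counts per library. The log2 fold changes of -0.48 (95% interval -1.08 to 0.12) in 8P vs 8ND and -0.34 (95% interval -0.998 to 0.33) in 0P vs 0ND did not pass the test (adjusted p of 0.227 and 0.463 in edgeR). Both intervals take in 0.

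Because the ligand genes are neighbors, their ratio was taken within each library. The ratio of Guca2a to Guca2b per kb was 1.25 to 8.79 in 8P (median 5.37), against 17.6 to 34.0 in 8ND (median 28.3). It was 3.56 to 6.54 in 0P (median 5.07), against 20.8 to 52.2 in 0ND (median 27.2). Guanylin thus stayed above uroguanylin per kb in all 18 libraries, with a smaller excess in each P library than in any ND library. In 8P 3 this excess rests on the gene lengths, as Guca2a had 3.82 CPM and Guca2b 4.47 CPM (47 and 55 counts). The ratios also carry the low counts of Guca2b. These ratios are a description and were not tested.

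**Figure D2:**
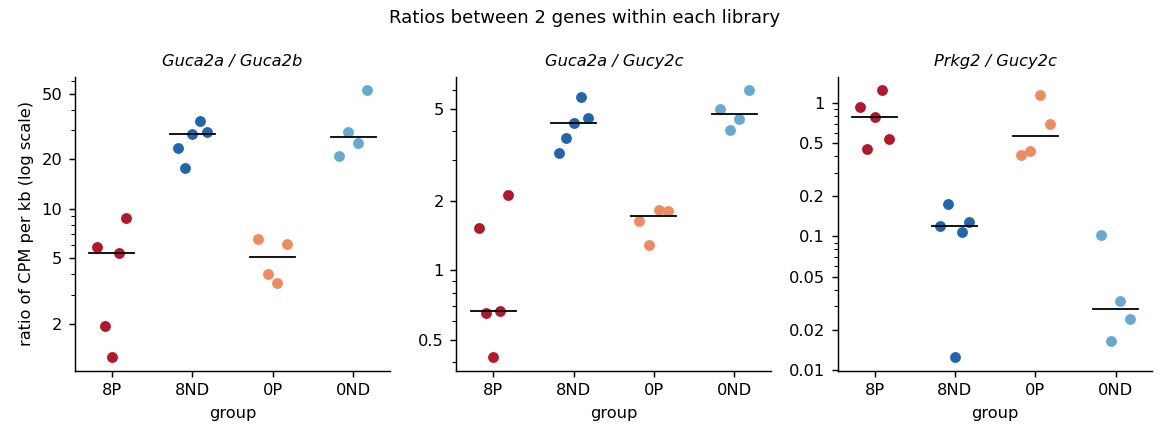
Ratio of the levels (CPM per kb) of a pair of genes within each library, on logarithmic axes. Each point is a library of 8P, 8ND, 0P or 0ND, and the line is the group median. The ratio of Guca2a to Guca2b was at most 8.79 in P and at least 17.6 in ND.

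The receptor was also lower in dysplasia, by less than guanylin. Gucy2c had 42.9, 66.5, 60.8, 46.3 and 70.3 CPM in 8P, against 124, 114, 134, 109.7 and 158 CPM in 8ND. It had 75.5, 56.9, 34.2 and 44.98 CPM in 0P, against 116, 133, 123 and 142 CPM in 0ND. No P library reached an ND library on either diet. Gucy2c fell by 1.16 (SE 0.18, 95% interval -1.53 to -0.79), 2.23-fold lower in 8P, with an adjusted p of 1.04e-04 in edgeR. In 0P it fell by 1.28 (SE 0.20, 95% interval -1.70 to -0.86), 2.42-fold lower, with an adjusted p of 8.57e-05 in edgeR. The ratio of guanylin to receptor transcripts per kb was 0.419 to 2.11 in 8P (median 0.669), against 3.21 to 5.64 in 8ND (median 4.34), and 1.29 to 1.82 in 0P (median 1.72), against 4.06 to 5.997 in 0ND (median 4.74). Receptor transcripts exceeded guanylin transcripts per kb in 3 of the 5 libraries of 8P and in none of the other 13 libraries.

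Downstream of cGMP, the kinase moved the opposite way. Prkg2 had 54.5, 40.8, 64.6, 77.8 and 51.0 CPM in 8P, against 20.2, 26.9, 2.25, 16.0 and 27.3 CPM in 8ND. It had 41.5, 33.6, 53.0 and 42.3 CPM in 0P, against 16.3, 3.00, 5.45 and 4.66 CPM in 0ND. Every P library was above every ND library, and the ND libraries differed among themselves by 12.1-fold in 8ND, where 8ND 3 was low, and by 5.44-fold in 0ND, where 0ND 1 was high. Prkg2 rose by 1.63 (SE 0.48, 95% interval 0.62 to 2.64), 3.10-fold higher in 8P, with an adjusted p of 0.0174 in edgeR. It rose by 2.45 (SE 0.56, 95% interval 1.27 to 3.64), 5.48-fold higher in 0P, with an adjusted p of 0.00303 in edgeR. Without 0ND 1 the value for 0P vs 0ND was 3.25. Among the 20787 genes tested, 605 had a higher log2 fold change than Prkg2 in 8P vs 8ND and 534 in 0P vs 0ND.

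The phosphodiesterase showed the smallest of the differences that passed the test. Pde5a had 174, 171, 210.2, 137 and 227 CPM in 8P, against 222, 227, 202, 247 and 232 CPM in 8ND. It had 166, 158, 184 and 166 CPM in 0P, against 230.4, 286, 247 and 227 CPM in 0ND. The groups overlapped on supplemented chow, where 8P 3 and 8P 5 lay within the ND range, and were apart on folate-free chow. Pde5a fell by 0.56 (SE 0.13, 95% interval -0.83 to -0.29), 1.47-fold lower in 0P, with an adjusted p of 0.00261 in edgeR. In 8P vs 8ND the log2 fold change of -0.30 (SE 0.12, 95% interval -0.54 to -0.05) did not pass (adjusted p of 0.0626 in edgeR). It passed without 8P 3 (-0.35, adjusted p of 0.0394) or without 8P 5 (-0.38, adjusted p of 0.0186). With libraries scaled to the epithelium markers it was -0.03 in 8P vs 8ND (adjusted p of 0.936), and in 0P vs 0ND it was -0.47 and no longer passed (adjusted p of 0.196). Over all alternatives the adjusted p of Pde5a in edgeR or DESeq2 ran from 0.0186 to 0.936 in 8P vs 8ND and from 6.42e-04 to 0.196 in 0P vs 0ND.

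In all, 3 of the 5 genes passed the test in 8P vs 8ND and 4 of 5 in 0P vs 0ND, where 28.2% and 31.6% of all tested genes did (adjusted p of at most 0.05 in edgeR). Groups that do not overlap were found for 3 of the 5 genes in 8P vs 8ND and for 4 of 5 in 0P vs 0ND, against 17.2% and 32.3% of all genes tested. Guca2a, Gucy2c and Prkg2 passed on both diets and kept their calls under every alternative run. Prkg2 kept its call in 8P vs 8ND by a narrow margin, with adjusted p from 0.00705 to 0.0484 in edgeR or DESeq2. The highest adjusted p in that comparison was 0.00105 for Guca2a and 0.00277 for Gucy2c. Without 8ND 1 and 8ND 2 the log2 fold changes in 8P vs 8ND were -3.36 for Guca2a, -1.22 for Gucy2c and 1.93 for Prkg2, and the same 3 genes passed.

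**Figure D3:**
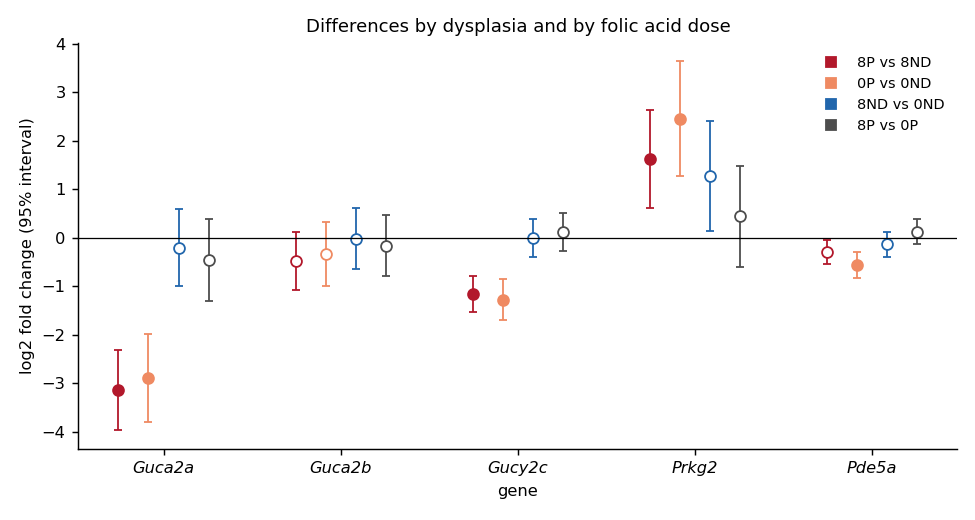
Log2 fold change of each gene with its 95% interval in 8P vs 8ND, 0P vs 0ND, 8ND vs 0ND and 8P vs 0P. Filled points passed the test (adjusted p of at most 0.05 over 20787 genes in edgeR) and open points did not. Filled points are those of Guca2a, Gucy2c and Prkg2 in both comparisons of P with ND, and of Pde5a in 0P vs 0ND.

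The effect of FA was examined within ND and within P. In 8ND vs 0ND none of the 5 genes passed the test in edgeR or in DESeq2, where 0.0481% of all genes did in edgeR. No gene of the 5 had groups without overlap, as 3.94% of all genes had. The log2 fold changes were -0.20 for Guca2a (95% interval -0.99 to 0.59), -0.02 for Guca2b (-0.65 to 0.62), -0.01 for Gucy2c (-0.40 to 0.38) and -0.13 for Pde5a (-0.39 to 0.12). Prkg2 had 18.5 ± 10.3 CPM in 8ND and 7.35 ± 6.06 CPM in 0ND (SD, n = 5 and 4), a log2 fold change of 1.27 (SE 0.53, 95% interval 0.14 to 2.40). Its unadjusted p was 0.0304, the only one of the 5 under 0.05, and its adjusted p was 0.437 in edgeR. The libraries 8ND 1, 8ND 2 and 8ND 5 were above every 0ND library, and 8ND 3 was below every one. Without 0ND 1 the value was 2.07 (adjusted p of 0.160), and over all alternatives the adjusted p ran from 0.0751 to 0.850.

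In 8P vs 0P none of the 5 genes passed in edgeR or DESeq2. In edgeR 0% of all genes passed, 2093 had an unadjusted p under 0.05, and DESeq2 called 17. Again none of the 5 had groups without overlap, as 2.25% of all genes had. The log2 fold changes were -0.45 for Guca2a (95% interval -1.30 to 0.40), -0.16 for Guca2b (-0.79 to 0.47), 0.11 for Gucy2c (-0.28 to 0.51), 0.44 for Prkg2 (-0.59 to 1.48) and 0.13 for Pde5a (-0.13 to 0.38), and no unadjusted p of the 5 was under 0.05 in this fit. Without 8P 5, its highest 8P library, Guca2a was at -1.04 (SE 0.29, adjusted p of 0.616 in edgeR), and over all alternatives its adjusted p ran from 0.593 to 0.976. For Guca2b, Gucy2c and Pde5a the intervals leave out a 2-fold difference in either direction, while those of Guca2a and Prkg2 do not. Whether the effect of FA differed between P and ND was tested by an interaction term, which is at once the difference of the P vs ND changes between diets. None of the 5 genes passed in edgeR or DESeq2, 0% of all genes passed in edgeR with 2163 at an unadjusted p under 0.05, and DESeq2 called 81. The interaction was -0.25 for Guca2a (95% interval -1.41 to 0.91), 0.12 for Gucy2c (-0.44 to 0.67), -0.82 for Prkg2 (-2.34 to 0.69) and 0.26 for Pde5a (-0.10 to 0.62), so the call for Pde5a on 1 diet only was not shown to be a difference between diets. Without 0ND 1 the interaction of Prkg2 was -1.62 (SE 0.68), and without 8P 5 that of Guca2a was -0.84 (SE 0.38), and none of the 5 passed under any alternative.

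Ion transport genes of the epithelium were then examined, from a list of 16 that includes the genes of CFTR and NHE3. Whether the genes of this list respond to cGMP in these samples was not tested. In 8P vs 8ND 2 rose, 8 fell and 6 did not pass, and in 0P vs 0ND 3 rose, 8 fell and 5 did not pass, where 13.9% and 15.9% of all genes rose and 14.3% and 15.7% fell. The median log2 fold change of the list was -0.68 and -0.50, against 0.00 and -0.03 over all genes. Slc26a3, the chloride/bicarbonate exchanger of surface colonocytes, had 17.8 ± 9.96 CPM in 8P and 284 ± 80.8 CPM in 8ND (SD, n = 5 each), and fell by 3.99 in 8P and by 4.27 in 0P. Kcne3, a potassium channel subunit of the basolateral membrane, fell by 1.66 and 1.93. Slc9a3, which encodes NHE3, had 333 ± 112 CPM in 8P and 134 ± 22.5 CPM in 8ND, and rose by 1.32 in 8P and by 1.79 in 0P. Abcc4, an exporter of cyclic nucleotides, rose by 1.57 and 2.05. These 4 genes were named because they had the smallest p of the list in 8P vs 8ND, so they do not stand for the whole list. Their adjusted p-values in edgeR ran from 1.00e-06 to 7.15e-05 over both diets. Genes named below from the lists of other cGMP genes, transcription factors and Wnt targets were picked the same way, apart from Cdx2 and Notum. Cftr, the chloride channel that the kinase opens, was named for this role and had 140.1 ± 63.7 CPM in 8P and 269 ± 36.3 CPM in 8ND, and it fell by 0.94 in 8P and 1.59 in 0P (adjusted p of 0.0325 and 0.00251 in edgeR).

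Of 16 genes of other routes to cGMP, 9 were tested, and in each comparison of P with ND 3 fell, none rose and 6 did not pass. Of all tested genes, 28.2% passed in 8P vs 8ND and 31.6% in 0P vs 0ND, and 14.3% and 15.7% fell. The 3 genes that fell were the same on both diets. With libraries scaled to the epithelium markers 1 passed on each diet, and without 8ND 1 and 8ND 2 the count in 8P vs 8ND was also 1. The subunits of soluble guanylate cyclase, the nitric oxide receptor, were among them, with Gucy1a1 lower by a log2 fold change of -1.10 in 8P and -1.37 in 0P and Gucy1b1 by -0.71 and -0.68. Npr2, the receptor of C-type natriuretic peptide, was at -0.72 and -0.73. Nos3, the endothelial nitric oxide synthase, was at -0.64 and -0.17 and did not pass. Of 15 other cGMP kinases, phosphodiesterases and exporters 13 were tested, of which 3 rose and 4 fell in 8P vs 8ND and 2 rose and 5 fell in 0P vs 0ND. Of all tested genes, 13.9% and 15.9% rose and 14.3% and 15.7% fell. Prkg1, the cGMP-dependent kinase of smooth muscle, had 6.75 ± 1.85 CPM in 8P and 18.6 ± 4.29 CPM in 8ND, and fell by 1.47 in 8P and 1.55 in 0P, the opposite direction to Prkg2. Pde3a, which cGMP inhibits, fell by 1.24 and 1.28. Pde2a, which cGMP stimulates, was at -1.55 and -2.04 and passed on both diets. Abcc5, a further exporter of cyclic nucleotides, rose by 0.49 and 0.41.

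Markers of some other cell types moved with these genes, while markers of others did so in part or not at all. For comparison, 13.9% of all tested genes rose and 14.3% fell in 8P vs 8ND. In 0P vs 0ND 15.9% rose and 15.7% fell. All 10 smooth muscle markers fell in 8P vs 8ND and in 0P vs 0ND, with a summed level of 425 to 860.1 CPM in 8P, against 1314 to 2465 CPM in 8ND, and of 575 to 1089 CPM in 0P, against 1497 to 3812 CPM in 0ND. None of them was at 0 in any library. The ND library with the highest Pde5a, 0ND 2, also had the highest smooth muscle sum, while 8P 3 had the lowest smooth muscle sum of 8P and the second highest Pde5a. The part of smooth muscle in the values of Pde5a, Prkg1 and the soluble cyclase was not tested. Of 12 absorptive colonocyte markers, which include Slc26a3, 9 fell and none rose in each comparison, with a summed level of 1096 to 1544 CPM in 8P, against 2519 to 3669 CPM in 8ND, and of 973 to 2242 CPM in 0P, against 3789 to 5251 CPM in 0ND. Of 11 goblet cell markers, which include Spdef, 11 fell in 8P vs 8ND and 9 in 0P vs 0ND, with sums of 940.5 to 3919 CPM in 8P, against 11330 to 20657 CPM in 8ND, and of 1660 to 4052 CPM in 0P, against 9373 to 9907 CPM in 0ND. Of 10 enteroendocrine markers tested, 8 fell and none rose on each diet (sums of 13.3 to 35.3 CPM in 8P, against 81.7 to 207 CPM in 8ND, and of 30.7 to 54.4 CPM in 0P, against 116 to 282 CPM in 0ND). Of 10 B and plasma cell markers, 6 fell in 8P vs 8ND and 3 in 0P vs 0ND and none rose (492 to 3215 CPM in 8P, against 3630 to 10729 CPM in 8ND, and 1057 to 1609 CPM in 0P, against 2571 to 5345 CPM in 0ND). Of 6 neutrophil markers tested, 4 rose and 1 fell on each diet (24.6 to 82.0 CPM in 8P, against 16.3 to 25.2 CPM in 8ND, and 29.4 to 45.8 CPM in 0P, against 20.3 to 32.0 CPM in 0ND), and Elane was at 0 in every library. Of 10 fibroblast and matrix markers, 1 rose and 1 fell in 8P vs 8ND, and 5 rose and 2 fell in 0P vs 0ND. Of 10 endothelium markers, 3 fell in 8P vs 8ND, and 1 rose and 2 fell in 0P vs 0ND. None of 10 macrophage and dendritic markers passed in 8P vs 8ND, and 2 rose in 0P vs 0ND. T and NK cell markers (8 tested) had 1 rise and 1 fall in 8P vs 8ND, and 1 and 2 in 0P vs 0ND. The same held for 5 tested enteric glia and neuron markers. Of 4 tuft cell markers tested, 1 fell on each diet. The part of these cell types in the fall of Guca2a and Gucy2c was not tested, and in these bulk samples fewer cells of a type and less RNA per cell cannot be told apart. Of the 10 epithelium markers 2 rose and 6 fell in 8P vs 8ND (median log2 fold change -0.42), and 2 rose and 3 fell in 0P vs 0ND (median -0.21). Their sums overlapped, at 2589 to 3779 CPM in 8P, against 2773 to 4517 CPM in 8ND, and at 3182 to 4436 CPM in 0P, against 3087 to 4716 CPM in 0ND.

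Transcription factors of the intestinal epithelium were mostly lower. Of 16 tested, 1 rose, 9 fell and 6 did not pass in 8P vs 8ND, and 1 rose, 10 fell and 5 did not pass in 0P vs 0ND. The shares over all tested genes were 13.9% and 15.9% higher and 14.3% and 15.7% lower. Klf4, a factor of differentiated colonic epithelium, was lower by a log2 fold change of -2.14 in 8P and -2.22 in 0P. The values were -1.79 and -1.86 for Cdx1 and -2.47 and -1.72 for Spdef, a factor of goblet cell maturation. Cdx2 was named for its known role as an intestinal regulator. It had 13.1 ± 7.14 CPM in 8P and 51.1 ± 11.1 CPM in 8ND, and fell by 1.97 in 8P and 2.05 in 0P (adjusted p of 9.12e-04 and 0.00150 in edgeR).

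**Figure D4:**
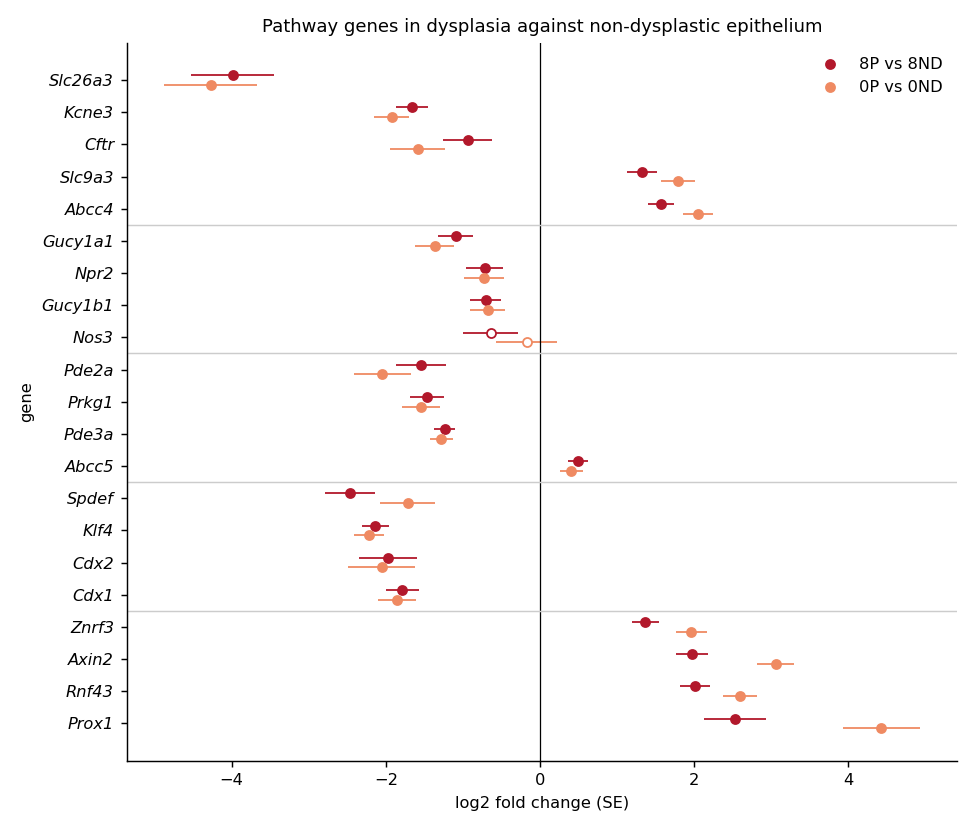
Log2 fold change with its SE for genes named from the 5 pathway lists, with grey lines between lists (from the top: ion transport, other cGMP production, other cGMP kinases with phosphodiesterases and exporters, intestinal transcription factors, Wnt targets). Dark points are 8P vs 8ND, light points 0P vs 0ND, and open points did not pass the test. Apart from Cftr and Cdx2, genes were picked for a p among the smallest of their list in 8P vs 8ND. That they passed there thus follows from the choice, and they do not stand for their lists. Of the genes shown, only Nos3 passed in neither comparison, and each had 1 direction on both diets. Other genes of the lists that did not pass are not shown.

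All 10 Wnt targets and stem cell genes rose in both comparisons, where 13.9% and 15.9% of all tested genes rose. The list was chosen with earlier results of these data known, so this count is a description and no test of the list. They included the feedback regulators Axin2 (1.97 in 8P and 3.06 in 0P), Rnf43 (2.01 and 2.59) and Znrf3 (1.37 and 1.96) and the transcription factor Prox1 (2.53 and 4.43). Prkg2 followed one of them closely. Of 11727 tested genes with a mean of at least 5 CPM, Notum, which encodes a secreted enzyme that inactivates Wnt ligands, had the pattern most like Prkg2 over the 18 libraries (Pearson r of log2 CPM 0.960, and 0.884 for deviations from the group means), followed by Tex15, Slc30a2, Spock2 and Pnliprp1 (0.939 to 0.953). The libraries share the 4 groups, so these values describe the pattern and carry no p. Within the 9 ND libraries the r of Prkg2 and Notum was 0.929 and within the 9 P libraries 0.332. Each set pools both diets, so these values include differences between diets. The ND value, and that of 0.884 for deviations from the group means, rest in part on very low Notum counts. These were 3, 12 and 1 in 0ND 2 to 0ND 4 and 1 in 8ND 3.

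In the ND libraries the order of Prkg2 and Notum was alike in part. Notum had 24.5, 19.3, 0.107, 12.3 and 14.6 CPM in 8ND 1 to 8ND 5, against 2.68, 0.529, 1.42 and 0.108 CPM in 0ND 1 to 0ND 4. The lowest 8ND library was 8ND 3 for Notum and for Prkg2, with 1 and 21 counts, and the highest 0ND library was 0ND 1 for both. The other ends of the order differed, as 8ND 1 was highest for Notum and 8ND 5 for Prkg2, and 0ND 4 was lowest for Notum and 0ND 2 for Prkg2. The summed level of the 10 Wnt genes was 798, 727, 215, 406 and 424 CPM in 8ND 1 to 8ND 5, against 200.3, 229, 257 and 197 CPM in 0ND 1 to 0ND 4, so that 0ND 1, the highest 0ND library for Prkg2, lay below 0ND 2 and 0ND 3 for these genes. Notum itself did not pass the test in 8ND vs 0ND (log2 fold change 3.36, SE 0.85, adjusted p of 0.134 in edgeR). The part of the Wnt program in the level of Prkg2 was not tested. Without 8ND 1 and 8ND 2, the log2 fold change of Prkg2 in 8ND vs 0ND was 0.97 and none of the 5 genes passed.

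**Figure D5:**
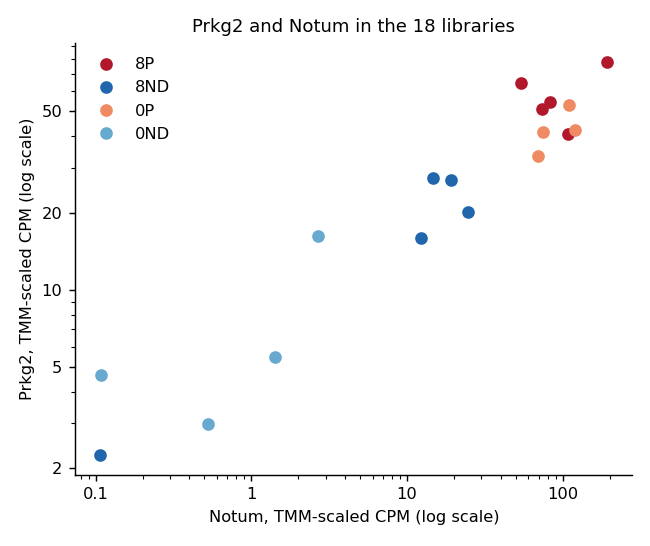
Levels of Prkg2 and Notum in the 18 libraries, in TMM-scaled CPM on logarithmic axes. Each point is a library of 8P, 8ND, 0P or 0ND. The 9 P libraries lie together at the top right, 4 of the 5 libraries of 8ND lie between them and 0ND on the Notum axis, and 8ND 3 lies at the bottom left with 0.107 CPM of Notum and 2.25 CPM of Prkg2.

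The other genes had different companions. The genes most like Guca2a were Hpd, an enzyme of tyrosine breakdown, Pck1, the rate-limiting enzyme of gluconeogenesis, Lama2, a laminin chain, Syt7 and Fam107b, with r of 0.966 to 0.973. Pck1 had 4.73 ± 3.36 CPM in 8P and 58.2 ± 21.4 CPM in 8ND (SD, n = 5 each), and 6.83 ± 4.54 CPM in 0P and 83.0 ± 38.9 CPM in 0ND (SD, n = 4 each). The genes most like Gucy2c were Pdxdc1, Fam13a, Fuom, Golph3l and Ugt1a7c (r of 0.966 to 0.976), of which Ugt1a7c shares exons with other Ugt1a genes and has uncertain counts. The genes most like Pde5a were Greb1l, P3h2, Itga7, a laminin receptor of muscle, Etv1 and Trpc1 (0.894 to 0.919). For Guca2b, with its low counts, Agtpbp1 stood first at 0.893 and the next was at 0.825. Among the 5 genes themselves, Guca2a and Gucy2c were the pair most alike over the 18 libraries (0.900), and within groups, as deviations from the group means, their r was 0.440. Prkg2 ran opposite to the other 4 over the 18 libraries, with r from -0.78 with Guca2a to -0.36 with Guca2b, and its within-group values lay between -0.22 and 0.06.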

How the data were processed

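RNA-Seq libraries were made with a stranded low-input kit from 40 ng of total RNA of colonic cells that were laser-microdissected from paraffin sections of formalin-fixed tissue. The authors aligned reads to mm10 with Bowtie, counted them with HTSeq and deposited 1 table of raw counts per gene name for each of the 18 libraries. No tool version is stated and the strand setting is likewise not given in the sources used here, so reads of overlapping genes on opposite strands cannot be told apart. The tables end with 5 summary lines that name no gene, which were left out: per library, 22.0 to 40.7% of reads fell on no gene, 0.220 to 0.384% were ambiguous and 40.1 to 62.2% had no unique alignment. Counts can include PCR copies.

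Each library's group was taken from the sample labels. Counts were fitted in R 4.3.3 with edgeR 4.0.16 (TMM, filterByExpr with a minimum count of 10, robust quasi-likelihood, all 18 libraries, 1 mean per group), which tested 20787 genes. Benjamini-Hochberg adjustment ran over all of these, with calls at 0.05. The SE is the log2 fold change over the square root of F, and intervals are 95%. The study used DESeq2 and, on a separate alignment, Cuffdiff, each with a cutoff on fold change. Here DESeq2 1.42.0 served as an alternative without such a cutoff, and Cuffdiff was not run. Other alternatives were other scalings, no filter, fits of 2 groups only, a replicate block and leaving out libraries. The scripts were tested on simulated data. For log2 CPM in correlations a prior count of 2 was used. No library repeated another of its group, as all 32 within-group pairs differed by more than sampling noise (lowest chi-square per gene 9.29). The genes and lists were chosen with earlier results of these data known. Named besides the 5 genes were up to 4 genes per pathway list with the smallest p in 8P vs 8ND and the 5 genes most correlated with each of the 5. Cftr and Cdx2 lay outside this rule, and a gene that the rule takes is left out. Coordinates are those of GENCODE M21, and promoters those of RefSeq.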

Additional observations from a re-analysis of the deposited data

Results flagged for a closer look

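Guca2a in 0ND 4 stood apart from the other libraries of its group, at 127 CPM, against 87.0, 81.3 and 82.8 CPM in 0ND 1, 0ND 2 and 0ND 3. It was the 1 case among 20 sets of a gene in a group, and chance marks about 1 in 20 such sets. Without 0ND 4 Guca2a still passed the test in 0P vs 0ND, where leaving out single libraries gave log2 fold changes between -3.12 and -2.71.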

How the results depend on the processing

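The number of the 5 genes that passed the test was 3 or 4 in 8P vs 8ND and in 0P vs 0ND and 0 in the other 3 comparisons under every alternative run. Scaling to the epithelium markers moved the median of all genes by 0.26 in 8P vs 8ND, 0.07 in 0P vs 0ND, 0.15 in 8ND vs 0ND, 0.34 in 8P vs 0P and 0.19 in the interaction, and 73.9% of the genes called in 8P vs 8ND were then higher in 8P, against 49.3% with TMM. No gene of the lists that passed changed sign under the scalings tried (DESeq2, RLE or epithelium markers). With epithelium scaling some calls were lost and a few gained. In 8P vs 8ND 0 endothelium markers fell (3 with TMM), 0 epithelium markers (6), 7 absorptive colonocyte markers (9) and 8 smooth muscle markers (10). There 1 macrophage and dendritic marker rose (0 with TMM), and all 10 Wnt genes still rose. Of the transcription factors 0 rose and 8 fell in 0P vs 0ND (1 and 10 with TMM). Counts of all genes called stayed within 1.5 times in 8P vs 8ND (4970 to 6498, against 5869) and 0P vs 0ND (4516 to 7099, against 6562). They changed by more in the other comparisons. In 8ND vs 0ND, with 10 by TMM in edgeR, there were 313 in DESeq2, 2 with epithelium scaling, 41 with no filter, 28 with the replicate block, 0 without 8ND 1 and 8ND 2, and 2 to 157 without 1 library (157 without 8ND 3). In 8P vs 0P, with 0, there were 17 in DESeq2, 2 with RLE size factors, 2 with no filter, 3 with the block and 0 to 5 without 1 library (5 without 0P 1). In the interaction, with 0, there were 81 in DESeq2, 1 with epithelium scaling, 1 with no filter and 0 to 26 without 1 library (26 without 8ND 3). The causes were not tested. No source says that replicate numbers pair P with ND, and they were not treated as pairs. The correlation of deviations of same-numbered libraries was -0.079 to 0.27 in 8P with 8ND, against -0.25 to 0.21 for other pairs of these groups. It was over 0.1 in 2 of 5, and 2 of 5 8P and 2 of 5 8ND libraries correlated best with their own number. In 0P with 0ND it was 0.026 to 0.20, against -0.12 to 0.074 for other pairs of these groups. It was over 0.1 in 2 of 4, and 3 of 4 0P and 2 of 4 0ND libraries correlated best with their own number. The block changed no call of the 5 genes (3, 4, 0, 0 and 0 passed) and left 5328 genes called in 8P vs 8ND and 5999 in 0P vs 0ND, against 5869 and 6562 without it. In 8ND vs 0ND and 8P vs 0P the block joined libraries of the same number across diets, and such libraries come from different mice. Their correlations were -0.21 to -0.052 in 8ND with 0ND and -0.18 to 0.24 in 8P with 0P. The libraries 8ND 5 and 8P 5 had no partner on the other diet. Block values for these comparisons, the 28 and 3 genes called included, thus do not reflect a pairing of mice. With this block Guca2a was at -0.88 in 8P vs 0P (SE 0.31, adjusted p of 0.593 in edgeR).

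Log2 fold changes that turned sign were near 0 and passed under no setting. In 8ND vs 0ND, epithelium scaling gave 0.088 for Guca2b, 0.15 for Gucy2c and 0.050 for Pde5a, leaving out 8ND 1 and 8ND 2 gave 0.021 for Guca2a, 0.00078 for Guca2b and 0.059 for Gucy2c, and leaving out 1 library gave -0.13 to 0.16 for Guca2b and -0.093 to 0.043 for Gucy2c. In 8P vs 0P, Guca2b was at 0.22 with epithelium scaling and at -0.33 to 0.052 without 1 library, and Gucy2c at -0.060 to 0.33. In the interaction, Guca2b was at 0.13 with epithelium scaling and at -0.32 to 0.067 without 1 library, and Gucy2c at -0.054 to 0.34.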
